A study of Saccharomyces cerevisiae W303 with 9 samples.

Results

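The genes described are 10 abundant transcripts of sugar breakdown in budding yeast, chosen by name. They are the 3 genes for glyceraldehyde-3-phosphate dehydrogenase, TDH1 (YJL052W), TDH2 (YJR009C) and TDH3 (YGR192C), the enolase genes ENO1 (YGR254W) and ENO2 (YHR174W), and FBA1 (YKL060C), PGK1 (YCR012W), CDC19 (YAL038W), PDC1 (YLR044C) and ADH1 (YOL086C). All 10 were found among the 7127 features of the count table, and all 10 were among the 5970 genes with enough reads to be tested. The 9 libraries were made from poly(A) RNA of strains in the W303 laboratory background, with 3 separate isolates of each strain. They comprise the wild type, a strain in which AIM29 is deleted (the deletion strain), and that deletion together with pmTDH3-ZPR1 (the construct strain). The construct's name holds that of TDH3, and ZPR1 encodes a zinc finger protein that is known to help eEF1A, an elongation factor of translation, to fold. The labels do not say what the letters pm stand for, nor whether the construct sits on a plasmid or in a chromosome. Every isolate was in YPD, a rich glucose medium, and was taken at an optical density at 600 nm between 0.4 and 0.6.

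Library totals ran from 14380639 to 20140071 counts. Libraries of the construct strain varied most, with a biological coefficient of variation of 14.8% (10.05% without replicate 3), against 5.23% for the wild type and 3.76% for the deletion strain. Levels are given as CPM, counts scaled to one common library total after correction for composition. AIM29 had 78.4 ± 3.38 CPM (SD, n = 3) in wild-type libraries, 2.76 ± 1.72 after its deletion and 6.56 ± 1.22 with the construct added, so the libraries match their labels. ZPR1 had 329 ± 7.59, 422 ± 22.6 and 5380 ± 454 CPM in the same order. Some reads remained on AIM29 where it is deleted, 11 to 55 counts in deletion libraries and 96 to 148 in construct libraries. In CPM the construct libraries lay wholly above the deletion libraries (log2 fold change 1.24, SE 0.34, edgeR adjusted p = 0.065). The source of these reads was not tested. Whether the isolates of a strain arose from separate matings or transformations is not given, so p-values measure the spread between these isolates.

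Glycolysis splits a sugar into a pair of three-carbon molecules and makes ATP from them, and on glucose this yeast turns the end product pyruvate into ethanol even when oxygen is present. The genes for these steps are among the most strongly transcribed of a growing cell. Their promoters are known as targets of the transcription factor Rap1 and of Gcr1, with its partner Gcr2, which acts beside it. Aldolase, encoded by FBA1, makes the three-carbon sugars; the TDH enzymes and phosphoglycerate kinase, encoded by PGK1, carry out the next steps; enolase and pyruvate kinase, encoded by CDC19, complete the path. Pyruvate decarboxylase, encoded by PDC1, and alcohol dehydrogenase, encoded by ADH1, then form ethanol. The TDH3 promoter is widely used to drive other genes at a high level.

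Sequence upstream of 4 genes is shown because TDH3 lends its name to the construct, TDH2 is its closest copy, PGK1 differed most between the strains in relation to its error, and ENO1 varied most between libraries. Each run covers the 300 bases that lie 600 to 301 bases before the start codon, read 5′ to 3′ on the strand of the gene, from the RefSeq assembly R64 of the S288C strain. Capitals mark CTTCC and CATCC, the cores of Gcr1 sites, and ACCCANACA, a core of Rap1 sites, searched on both strands; adjoining matches run together.
TDH3, chrVII:884111-884410, minus strand: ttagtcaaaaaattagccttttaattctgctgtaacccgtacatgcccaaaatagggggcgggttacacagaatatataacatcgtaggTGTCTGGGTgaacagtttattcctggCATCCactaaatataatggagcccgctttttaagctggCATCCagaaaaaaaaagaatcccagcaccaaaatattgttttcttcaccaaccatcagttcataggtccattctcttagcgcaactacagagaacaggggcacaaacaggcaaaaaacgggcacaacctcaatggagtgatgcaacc
TDH2, chrX:454982-455281, minus strand: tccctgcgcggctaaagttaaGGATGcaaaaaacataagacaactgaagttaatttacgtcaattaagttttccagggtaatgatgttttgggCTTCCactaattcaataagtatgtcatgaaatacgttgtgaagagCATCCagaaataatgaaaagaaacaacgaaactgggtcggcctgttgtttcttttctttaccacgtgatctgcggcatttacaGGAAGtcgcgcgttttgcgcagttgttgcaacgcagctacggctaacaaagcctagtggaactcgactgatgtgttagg
PGK1, chrIII:137146-137445, plus strand: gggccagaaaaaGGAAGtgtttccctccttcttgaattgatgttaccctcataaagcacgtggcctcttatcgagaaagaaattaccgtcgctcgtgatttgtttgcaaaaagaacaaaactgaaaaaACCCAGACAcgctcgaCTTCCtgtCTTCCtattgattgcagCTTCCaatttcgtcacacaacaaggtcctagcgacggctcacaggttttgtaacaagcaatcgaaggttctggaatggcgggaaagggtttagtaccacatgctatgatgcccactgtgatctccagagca
ENO1, chrVII:1000327-1000626, plus strand: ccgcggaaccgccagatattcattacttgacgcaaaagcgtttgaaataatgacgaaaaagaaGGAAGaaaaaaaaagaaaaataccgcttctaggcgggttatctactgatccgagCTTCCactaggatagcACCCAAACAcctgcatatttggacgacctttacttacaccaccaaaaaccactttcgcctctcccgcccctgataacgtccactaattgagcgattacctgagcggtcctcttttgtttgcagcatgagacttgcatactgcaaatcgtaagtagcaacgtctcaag

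The TDH3 window held 1 match to the Rap1 core and 2 to CATCC, but 0 to CTTCC. The PGK1 window held 1 Rap1 match and 4 to CTTCC, and that of ENO1 held 1 Rap1 match and 2 to CTTCC. The TDH2 window held 2 CTTCC and 2 CATCC matches and 0 Rap1 matches. FBA1 was the only other member with a Rap1 match in this window. Among 5999 windows of the same length and place before protein-coding genes, 1.82% held the Rap1 core, 49.6% held CTTCC and 35.4% held CATCC, so the short cores occur before many genes. TTCNNGAA, a core of sites of the heat shock factor Hsf1, was found in 13.9% of all windows and in those of PGK1 and ENO2 (2 and 1 matches). No annotated gene lies within the 4 windows printed. These matches are descriptions of the letters, not of binding.

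The coding sequences of the TDH genes are much alike, which bears on how reads can be assigned. All 3 are 999 bases long and have a single exon. TDH2 and TDH3 are identical at 95.8% of positions, TDH1 and TDH2 at 90.2%, and TDH1 and TDH3 at 88.9%. The first 60 coding bases are shown, with capitals where the 3 genes do not all hold the same base.
TDH1, chrX:338271-338330, plus strand: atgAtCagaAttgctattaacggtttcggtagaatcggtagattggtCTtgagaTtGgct
TDH2, chrX:454622-454681, minus strand: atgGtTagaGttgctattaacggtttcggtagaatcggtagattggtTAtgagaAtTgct
TDH3, chrVII:883751-883810, minus strand: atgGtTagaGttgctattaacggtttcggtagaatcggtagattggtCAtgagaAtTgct

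In this stretch TDH2 differs from TDH3 at 1 base and TDH1 at 6. Of the 50-base windows of each gene, 84.3% in TDH1, 68.7% in TDH2 and 75.6% in TDH3 occur once in the genome. For ENO1 and ENO2, identical at 94.8% of 1314 aligned bases, the share is 76.4% each. It is 86% for ADH1, 99% for PDC1 and 100% for FBA1, PGK1 and CDC19. How reads that map to several places were counted is not given in the sources used here, so the split between copies is uncertain for the TDH and ENO genes. The count table also lists YCR013C and YAL037C-B, dubious reading frames known to overlap PGK1 and CDC19, with 2 to 25 and 0 to 2 counts a library. YCR013C had 9, 2 and 7 counts in wild-type libraries, 17, 25 and 18 in deletion libraries, and 9, 11 and 4 in construct libraries. PGK1 itself had 38081 to 48101 counts a library. The counting of such overlaps is not given either, so the levels of PGK1 and CDC19 set against other genes are uncertain. Whether the overlap bears on differences of PGK1 between strains was not tested.

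**Figure D1:**
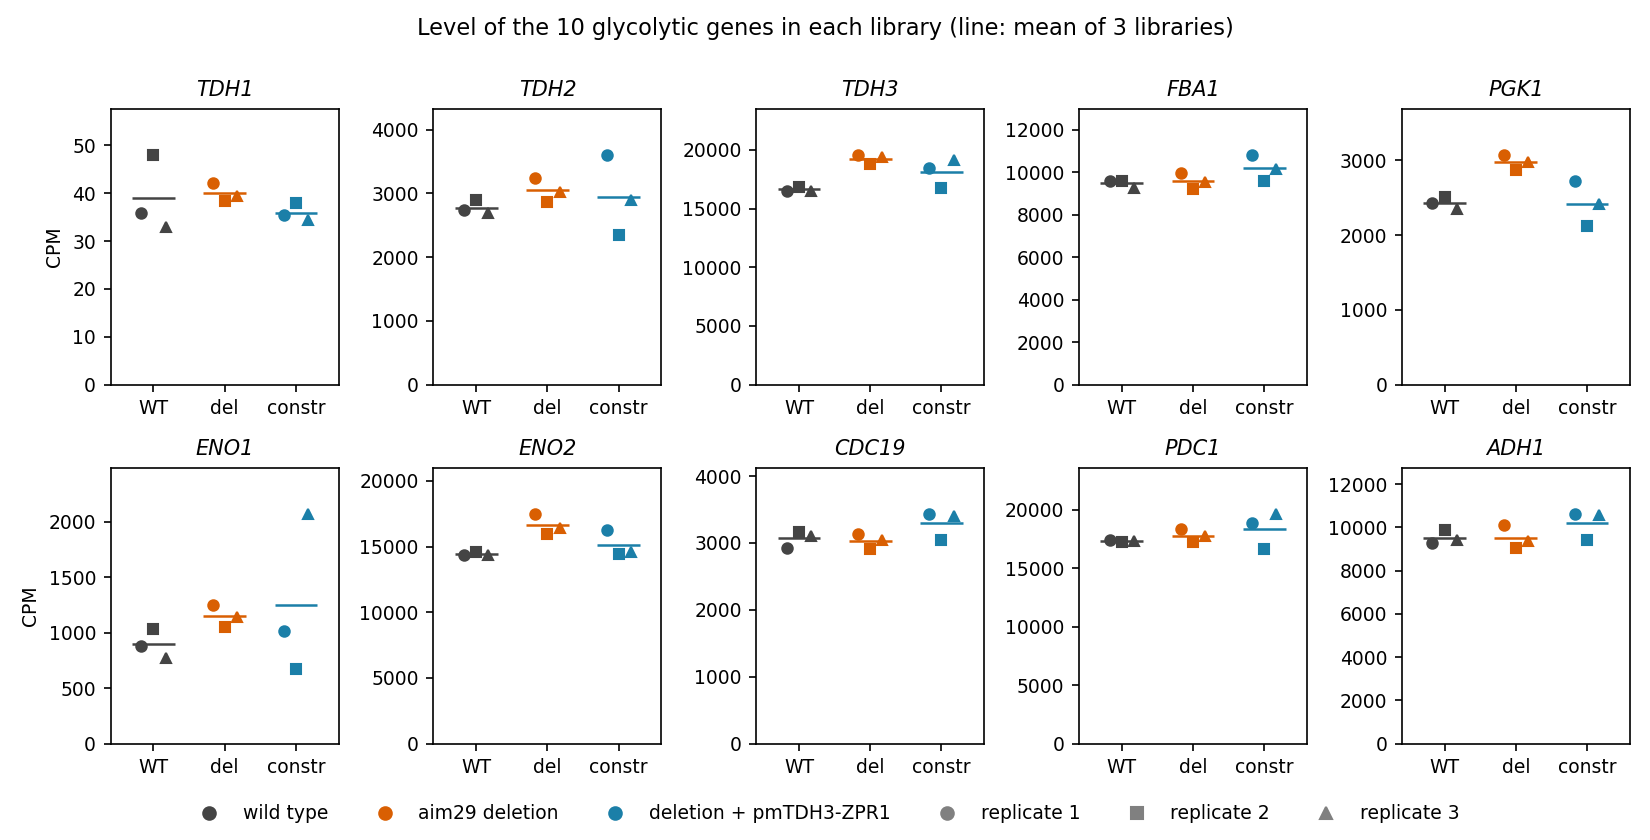
CPM of each of the 10 genes (vertical axes, each from 0) in the 9 libraries, coloured by strain, with the symbol giving the replicate and a line at the mean of 3 libraries. TDH3, PGK1 and ENO2 sit higher in the deletion libraries than in the wild type, while ENO1 stands at 2072 CPM in construct replicate 3.

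Per kilobase of coding sequence, TDH3 had the highest level of all features with a coding length in every wild-type and deletion library, and ranked first or second in the construct libraries. Its level was 16656 ± 196 CPM per kilobase in the wild type (SD, n = 3). ENO2 followed among the members at 10985 ± 106, then PDC1 at 10240 ± 60.8, ADH1 at 9093 ± 289 and FBA1 at 8792 ± 179. ADH1 and FBA1 are neighbours in this order that differed by less than 2 SD of ADH1. TDH2 was at 2778 ± 102, CDC19 at 2041 ± 83.1, PGK1 at 1944 ± 67.9 and ENO1 at 681 ± 101, and the values of CDC19 and PGK1 differed by about the size of their SDs. TDH1, known as the copy used mainly as growth slows, was far below at 39.0 ± 8.01 CPM per kilobase. TDH3 made up 83.5% to 87.5% of all TDH counts over the 9 libraries, TDH2 12.3% to 16.3% and TDH1 0.156% to 0.243%.

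Together the 10 genes took up 7.76%, 7.90% and 7.71% of all counts in wild-type replicates 1, 2 and 3, a share that needs no scaling. In the deletion strain the shares were 8.38%, 7.90% and 8.12%, and in the construct strain 8.42%, 7.82% and 8.39%. The deletion libraries all lay above the wild type, replicate 2 of each strain by a narrow margin (7.900 against 7.896%), while the construct libraries overlapped both other strains. The mean difference was 0.341 percentage points between the deletion strain and the wild type (exact two-sided permutation test, p = 0.1, the smallest that 3 against 3 libraries allow; adjusted p = 0.3 over 3 comparisons). It was 0.421 between the construct strain and the wild type (exact p = 0.2, adjusted p = 0.3) and 0.0803 between the construct strain and the deletion strain (exact p = 0.8). The last of these turned negative without construct replicate 1 or 3 or deletion replicate 2, at −0.0240, −0.0114 and −0.0349.

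The deletion strain set against the wild type asks how these transcripts differ when AIM29 is missing. By edgeR 0 of the 10 genes passed the threshold, an adjusted p under 0.05 (quasi-likelihood test, Benjamini-Hochberg over all genes); 3 had an unadjusted p under 0.05. Among all tested genes 6.4% were called in this comparison and 21.8% had an unadjusted p under 0.05. Fitted ratios lay between 0.987 and 1.28, with a median log2 fold change of 0.09 and one of 0.00 over all tested genes. ENO1 had the largest, with a log2 fold change of 0.36 ± 0.31 (SE, edgeR adjusted p = 0.552). The 95% interval of its ratio was wide, 0.798 to 2.07, so the size of its difference is uncertain. In 4 members, TDH3, PGK1, ENO1 and ENO2, all deletion libraries lay above all wild-type libraries, where 21.1% of tested genes did so; 0 members lay wholly below, against 19.2%.

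TDH3, the main glyceraldehyde-3-phosphate dehydrogenase gene, had 16540, 16865 and 16512 CPM in wild-type replicates 1, 2 and 3, 19587, 18776 and 19398 in deletion libraries, and 18424, 16774 and 19156 in construct libraries. The wild type and the deletion strain were apart; construct replicate 2 lay within the range of the wild type, replicate 3 within that of the deletion strain, and replicate 1 between them. The fitted level in the deletion strain was 15.7% above the wild type (log2 fold change 0.21 ± 0.06, SE, 95% interval of the ratio 1.06 to 1.27, edgeR adjusted p = 0.0633). PGK1, which follows TDH3 in the pathway, had 2435, 2514 and 2345 CPM in wild-type libraries, 3075, 2874 and 2981 in deletion libraries, and 2719, 2123 and 2422 in construct libraries. Its deletion libraries were all higher than those of both other strains. The fitted level was 22.4% above the wild type (log2 fold change 0.29 ± 0.08, ratio 1.08 to 1.39, edgeR adjusted p = 0.0573). ENO2, the enolase gene known to be favoured on glucose, had 14334, 14594 and 14377 CPM in wild-type libraries, 17486, 15935 and 16422 in deletion libraries, and 16292, 14425 and 14552 in construct libraries. Construct replicate 1 fell among the deletion libraries and the other two among the wild type. The deletion strain was 15.1% above the wild type (log2 fold change 0.20 ± 0.06, ratio 1.04 to 1.27, edgeR adjusted p = 0.0866).

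The call for these 3 genes depended on which libraries and tools gave the spread. Leaving out any construct library, none of which enters the difference itself, led edgeR to call TDH3, PGK1 and ENO2 higher in the deletion strain, with adjusted p of 0.027, 0.0127 and 0.0127 without replicate 1, 0.00773, 0.00773 and 0.036 without replicate 2, and 0.0293, 0.0193 and 0.0474 without replicate 3. A fit of the wild type and the deletion strain alone called 5 members higher, TDH2 and ENO1 being added, and DESeq2 called the 3. These fits also called more of all genes than the 382 of 5970 in the main fit. The counts were 491 of 6004, 638 of 5994 and 1097 of 6008 without construct replicates 1, 2 and 3. They were 1588 of 5929 for the groups alone and 597 of 5970 by DESeq2. Leaving out any one wild-type or deletion library, all of which enter the difference, left 0 members called, with 168 to 206 calls over all genes. The replicate block and median-ratio factors also called 0 members, with 328 and 383 of all 5970 genes called. Over 19 alternatives TDH3 was called in 9, PGK1 in 7 and ENO2 in 6. The adjusted p of TDH3 ran from 1.87e-05 to 0.232, and its log2 fold change from 0.16 to 0.23, above 0 in each.

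FBA1, CDC19, PDC1 and ADH1 had fitted ratios close to 1 in the same comparison. Aldolase gene FBA1 had 9607, 9606 and 9272 CPM in the wild type and 9966, 9193 and 9544 in the deletion strain (95% interval of the ratio 0.919 to 1.10). PDC1 had 17413, 17212 and 17353 CPM in the wild type and 18342, 17223 and 17758 in the deletion strain (0.926 to 1.14). For ADH1 the interval was 0.902 to 1.11 and for CDC19 it was 0.897 to 1.09. The groups overlapped in all 4 genes. The upper bounds of these intervals all lay below the ratio of 1.15 fitted for ENO2. The interval of ENO2 itself, 1.04 to 1.27, overlapped all of them, and differences between genes were not tested.

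Ratios of counts within a library, which need no scaling, were set side by side after the values had been seen. They are made from the same counts as the levels above, so they are not separate evidence. TDH3 counts divided by PDC1 counts gave 0.950, 0.980 and 0.952 in wild-type libraries, 1.07, 1.09 and 1.09 in deletion libraries, and 0.975, 1.01 and 0.975 in construct libraries. PGK1 divided by PDC1 gave 0.140, 0.146 and 0.135, then 0.168, 0.167 and 0.168, then 0.144, 0.128 and 0.123. For both, the 3 deletion libraries lay above the other 6. ADH1 divided by PDC1 gave 0.533, 0.573 and 0.543 in the wild type and 0.551, 0.526 and 0.527 in the deletion strain, which overlap. ENO2 divided by PDC1 gave 0.823, 0.848 and 0.828 in the wild type, 0.953, 0.925 and 0.925 in the deletion strain, and 0.862, 0.868 and 0.74 with the construct. For FBA1 and CDC19 divided by PDC1 the wild type and the deletion strain overlapped. These ratios carry no test.

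**Figure D2:**
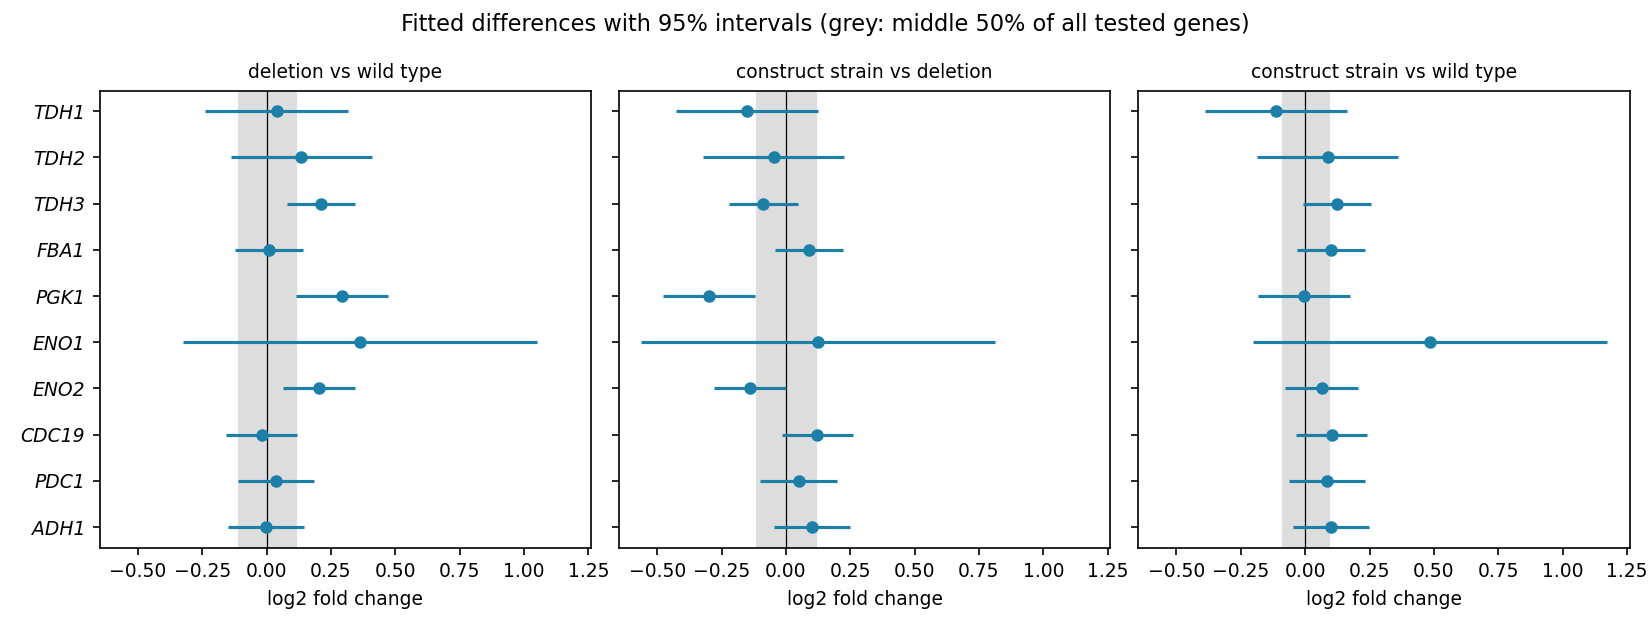
Fitted log2 fold change of each gene (points) with its 95% interval (lines) in the 3 comparisons; the grey band spans the middle 50% of all 5970 tested genes. TDH3, PGK1 and ENO2 lie to the right of 0 in the deletion strain against the wild type, PGK1 lies to the left in the construct strain against the deletion, and ENO1 has the widest intervals.

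TDH2 and TDH1 were not called either. TDH2, the second copy, had 2744, 2890 and 2693 CPM in wild-type libraries, 3248, 2864 and 3027 in deletion libraries, and 3606, 2349 and 2893 in construct libraries, so the construct libraries reached both beyond and below the other strains. Its ratio between the deletion strain and the wild type had a 95% interval of 0.908 to 1.33. TDH1 had 35.8, 48.1 and 33.0 CPM in wild-type libraries, 42.2, 38.3 and 39.4 in deletion libraries, and 35.6, 38.0 and 34.3 in construct libraries. Its counts were 536 to 798 a library. The balance among the copies was compared in 9 exact permutation tests of log2 count ratios. The TDH2 to TDH3 ratio had a mean log2 of −2.58 ± 0.04 (SD, n = 3) in wild-type libraries, −2.66 ± 0.06 in deletion libraries and −2.64 ± 0.25 in construct libraries, with exact p of 0.2, 1.0 and 0.8 for the 3 comparisons and adjusted p of 1.0. The TDH1 to TDH3 ratio was −8.76 ± 0.27, −8.91 ± 0.05 and −8.98 ± 0.17, with exact p of 0.4 to 0.6. The smallest p this design allows is 0.1, and 3 of the 6 differences in the TDH ratios changed sign when 1 library was left out.

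The construct strain set against the deletion strain addresses these transcripts when ZPR1 is made from the construct in cells lacking AIM29. Again 0 of 10 members were called by edgeR, and 1, PGK1, had an unadjusted p under 0.05. Of all tested genes 5.38% were called, and 22.5% were under 0.05 before adjustment. Fitted ratios ran from 0.813 to 1.09, with a median log2 fold change of 0.00, as over all genes. PGK1 was 18.7% below the deletion strain (log2 fold change −0.30 ± 0.08, ratio 0.719 to 0.921, edgeR adjusted p = 0.061), and its libraries lay wholly below. Without construct replicate 1 or 2 edgeR called PGK1 lower, with adjusted p of 0.00613 and 0.0477, and without replicate 3 the adjusted p was 0.0503. ENO2 had a log2 fold change of −0.14 ± 0.06 and was called only without construct replicate 1, at −0.20 with an adjusted p of 0.0278. TDH1 also lay wholly below the deletion strain, at −0.15 ± 0.12 (edgeR adjusted p = 0.506). In all, 2 members lay wholly below, where 13.5% of tested genes did, and 0 wholly above, against 12.2%. TDH3 was at −0.09 ± 0.06, with a 95% interval of the ratio of 0.858 to 1.03.

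The construct strain set against the wild type places the strain that carries both changes beside the starting strain. By edgeR 0 members were called and 0 had an unadjusted p under 0.05; DESeq2 called 0 too. Of all tested genes edgeR called 0.184%, and 12.8% were under 0.05 before adjustment. PGK1 was close to the wild type, at a log2 fold change of −0.01 ± 0.08 (ratio 0.880 to 1.13). TDH3 was at 0.12 ± 0.06 (0.993 to 1.19), PDC1 at 0.09 ± 0.07 (0.958 to 1.18), ADH1 at 0.10 ± 0.07 (0.967 to 1.19), CDC19 at 0.10 ± 0.06 (0.976 to 1.18) and FBA1 at 0.10 ± 0.06 (0.979 to 1.18). FBA1, at 10823, 9609 and 10137 CPM, was the one member whose construct libraries all lay above the wild type, the lowest of them by less than 2 CPM; 7.81% of tested genes did so. Wholly below the wild type lay 0 members, against 8.58% of tested genes. The 2 comparisons of the construct strain and that of the deletion strain share libraries, so their values are not independent.

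ENO1, the enolase gene known to be held lower on glucose than ENO2, differed most from library to library. It had 878, 1035 and 771 CPM in wild-type libraries, 1251, 1053 and 1145 in deletion libraries, and 1015, 673 and 2072 in construct libraries. Construct replicate 3 was the highest of the 9 libraries and construct replicate 2 the lowest. ENO1 made up 12.5% of all enolase counts in construct replicate 3 and 4.46% to 6.68% in the other libraries, while ENO2 in that library, at 14552 CPM, was within the range of the wild type. The log2 fold change from the deletion strain was 0.12 ± 0.31 with all libraries and −0.45 ± 0.15 without construct replicate 3 (edgeR adjusted p = 0.849 and 0.0829). From the wild type it was 0.49 ± 0.31 and −0.09 ± 0.15 (edgeR adjusted p = 0.537 and 0.837). The mean log2 ratio of ENO1 to ENO2 was −4.02 ± 0.20 (SD, n = 3) in wild-type libraries, −3.86 ± 0.06 in deletion libraries and −3.75 ± 0.84 in construct libraries (exact permutation p = 0.3, 1.0 and 0.8, adjusted p = 1.0). Its differences from the other strains changed sign without construct replicate 3, from 0.11 to −0.36 and from 0.28 to −0.19.

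**Figure D3:**
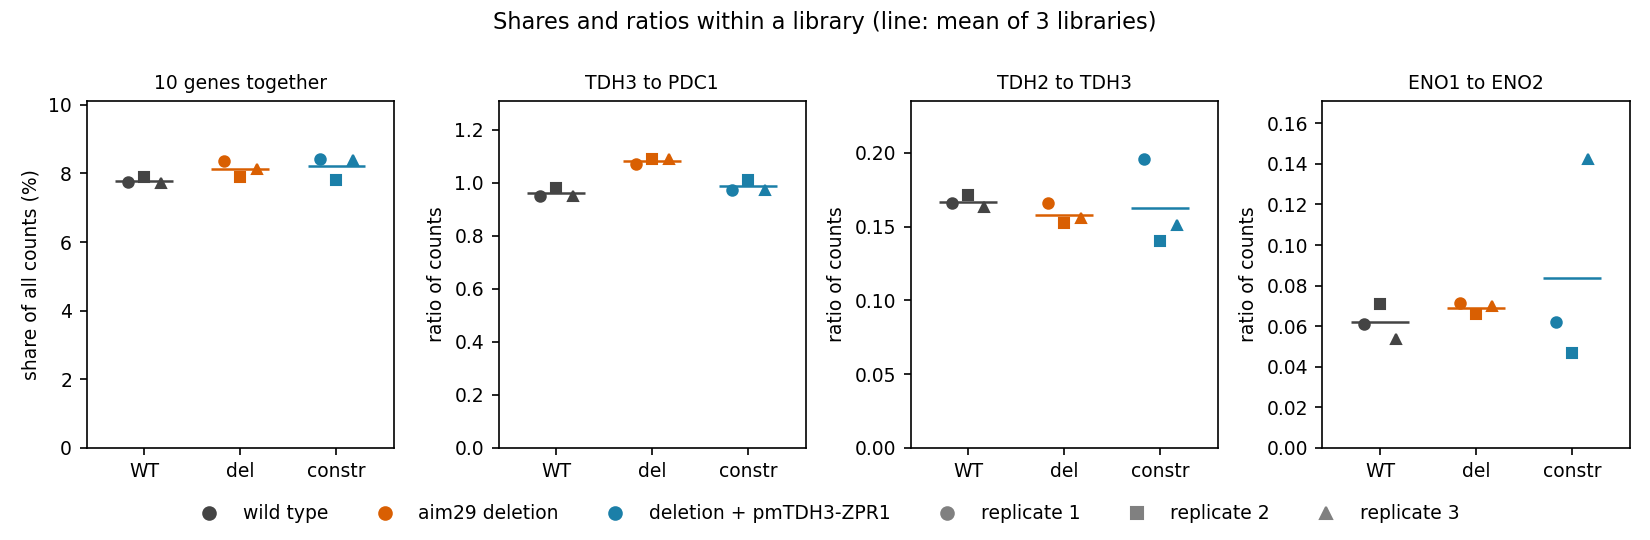
Share of all counts on the 10 genes (%) and ratios of counts of TDH3 to PDC1, TDH2 to TDH3 and ENO1 to ENO2 in each library, with lines at the means of 3 libraries and axes from 0. The TDH3 to PDC1 ratio is 1.07 to 1.09 in the deletion libraries and at most 1.01 elsewhere, and the ENO1 to ENO2 ratio is 0.142 in construct replicate 3.

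Construct replicate 3 stood apart in storage and hexose genes too. It was the highest of the 9 libraries for all 13 genes of trehalose and glycogen metabolism and for 7 of 12 other glycolytic enzymes, but for 2 of the 10 members, ENO1 and PDC1; over all tested genes the share was 24.4%. The hexokinase gene HXK1 had 133 CPM there and 20.7 to 38.1 in the other libraries, and the glucokinase gene GLK1 had 102 against 29.9 to 51.9. FBP26 and PFK26, whose products break down and make the glycolytic activator fructose-2,6-bisphosphate, had 105 and 95.4 CPM against 40.7 to 47.6 and 42.0 to 49.7. The glycogen phosphorylase gene GPH1 had 36.3 CPM against 11.3 to 19.8. These genes were picked for their values in this library, and what set it apart was not tested.

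**Figure D4:**
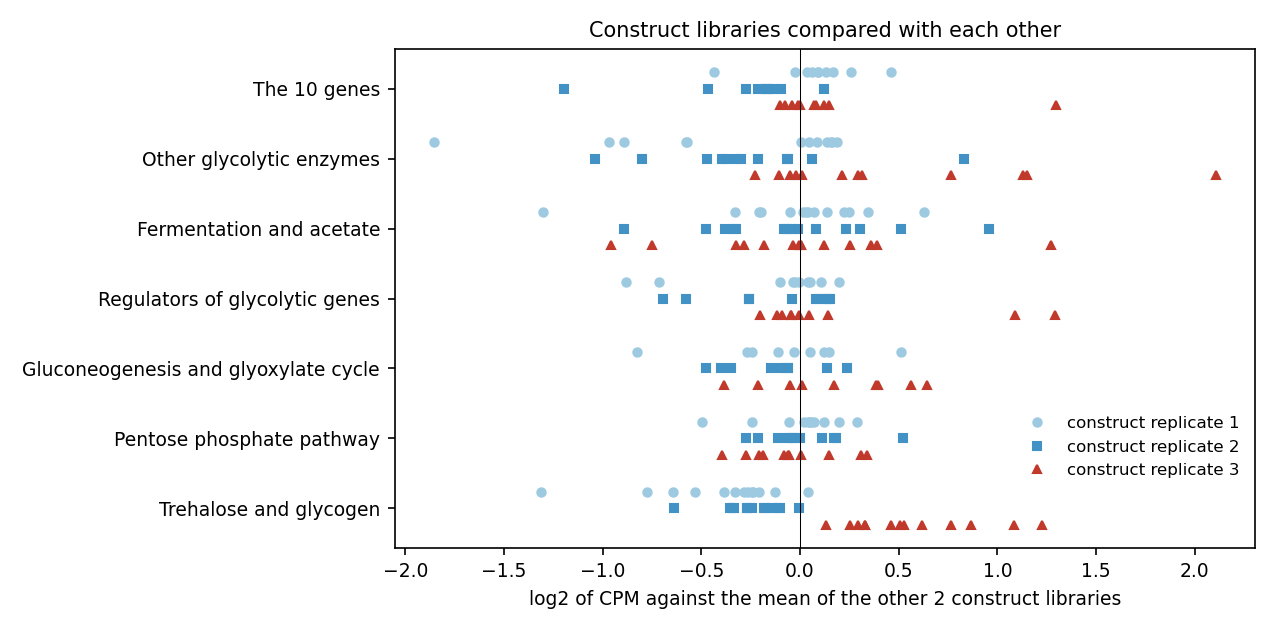
Each construct library's CPM as a log2 ratio to the mean of the other 2 construct libraries (horizontal axis), 1 symbol per gene, for the 10 genes and 6 lists of related genes. Replicate 3 lies to the right of 0 for all 13 trehalose and glycogen genes, and its point furthest to the right among the 10 genes is ENO1.

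The level that ZPR1 reached can be set beside TDH3 in the same libraries. Per base of coding sequence, ZPR1 counts were 21.0%, 19.8% and 20.1% of TDH3 counts in construct replicates 1, 2 and 3, and 1.31% to 1.55% in the wild-type and deletion libraries. TDH3 itself was not called between the construct strain and the deletion strain, as given above. The counts on ZPR1 include any from its own chromosomal gene.

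Other genes around this pathway were read from 6 lists. Of 15 other glycolytic enzymes 12 were tested, ERR1, ERR2 and ERR3 having at most 9 counts in a library. Of their 50-base windows 0% in ERR1 and ERR2 and 35.9% in ERR3 occur once in the genome, so these counts are uncertain. In the deletion strain against the wild type edgeR and DESeq2 each called 0 of these 12, where edgeR called 6.4% of all tested genes. An unadjusted p under 0.05 was reached by 0 of them, against 21.8% of all tested genes. The list median was 0.01, with GPM1, for phosphoglycerate mutase, at 0.15 ± 0.09 and TPI1, for triosephosphate isomerase, at 0.08 ± 0.05. Against the deletion strain HXK2, the main hexokinase gene on glucose, was higher in the construct strain, at 1440, 1197 and 1329 CPM against 1101, 1063 and 1073. The groups did not overlap (log2 fold change 0.29 ± 0.07, edgeR adjusted p = 0.0281). It was the 1 gene of the 12 called there, where 5.38% of all tested genes were. In that comparison 4 of the 12 had an unadjusted p under 0.05, against 22.5% of all tested genes. HXK2 lost this call without any one deletion library or without wild-type replicate 2 or 3, with adjusted p of 0.0528 to 0.129, and in a fit of both groups alone, at 0.104. The list median was 0.17 in that comparison, 0.07 without construct replicate 3 and 0.26 without construct replicate 2. Against the wild type it was 0.19, and 0.11 and 0.31 without those libraries. There edgeR called 0 of the 12 and 0.184% of all tested genes. An unadjusted p under 0.05 was reached by 5 of the 12 and by 12.8% of all tested genes. There HXK2 was at 0.28 ± 0.07 (edgeR adjusted p = 0.194, and 0.0174 without construct replicate 2) and was called higher by DESeq2 (adjusted p = 0.0283).

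Of 14 fermentation and acetate genes, all tested, 2 passed the test in a pair of comparisons. ALD5 and ADH5 were higher in the deletion strain than in the wild type and lower with the construct than without it. The shares called over all tested genes in these comparisons were 6.4% and 5.38%. ALD5, a mitochondrial acetaldehyde dehydrogenase gene, had 304, 238 and 230 CPM in wild-type libraries, 457, 436 and 453 in deletion libraries, and 233, 167 and 201 in construct libraries. Its deletion libraries lay above all others, with log2 fold changes of 0.80 ± 0.13 and −1.16 ± 0.13 (edgeR adjusted p = 0.00331 and 0.000426). ADH5, a minor alcohol dehydrogenase gene, had 27.5 ± 1.53 CPM (SD, n = 3) in wild-type libraries, 59.8 ± 4.48 in deletion libraries and 30.1 ± 10.2 in construct libraries. Its deletion libraries also lay above the rest, with log2 fold changes of 1.12 ± 0.20 and −0.99 ± 0.20 (edgeR adjusted p = 0.00745 and 0.0149). ADH5 lost the second call without any one deletion library, at adjusted p of 0.0508 to 0.0699, and in a fit of both groups alone, at 0.0666. Against the wild type 0 genes of the list were called in the construct strain by edgeR or DESeq2. An unadjusted p under 0.05 was reached by 3 genes of the list, and by 12.8% of all tested genes. PDC5, the gene for a second pyruvate decarboxylase, was at 34.3 ± 2.50 CPM (SD, n = 3) in the wild type and 25.6 ± 1.95 in the deletion strain, and was called lower there, along with ALD6, by edgeR without construct replicate 2 or 3. With all libraries edgeR did not call PDC5 (adjusted p = 0.0912), while it was called lower without composition factors, by DESeq2 and, with ALD6, by limma-voom with quality weights. SFA1 was called higher in the deletion strain by edgeR without construct replicate 3, and with quality weights.

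The regulators of glycolytic genes, 10 of 10 tested, held 0 calls by edgeR in each comparison. In the order used so far 0, 1 and 1 had an unadjusted p under 0.05. The shares over all tested genes were 21.8%, 22.5% and 12.8%. GCR1, whose product activates glycolytic genes, had 115, 124 and 112 CPM in wild-type libraries, 122, 123 and 127 in deletion libraries, and 154, 129 and 156 in construct libraries. The construct libraries lay above the rest, with log2 fold changes of 0.24 ± 0.07 from the deletion strain and 0.33 ± 0.07 from the wild type (edgeR adjusted p = 0.0949 and 0.183). Without construct replicate 2 edgeR called it higher in both comparisons, and DESeq2 called it higher against the wild type; DESeq2 called 0 regulators otherwise. REB1, which encodes a general regulatory factor, was at 0.12 ± 0.06 in the deletion strain.

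In gluconeogenesis and the glyoxylate cycle, 1 of 9 genes was called by edgeR, in the construct strain against the deletion strain, where DESeq2 called 3. Over all 5970 genes edgeR called 321 in that comparison and DESeq2 503. MDH2, for cytosolic malate dehydrogenase, had 42.3, 35.6 and 37.1 CPM in wild-type libraries, 26.8, 31.9 and 29.1 in deletion libraries, and 56.0, 49.9 and 82.7 in construct libraries, and the 3 groups did not overlap. Its level with the construct was above that of the deletion strain by 1.10 ± 0.17 on the log2 scale (edgeR adjusted p = 0.00305). In the fit without construct replicate 3 it was also called lower in the deletion strain than in the wild type (edgeR adjusted p = 0.0105) and higher with the construct than in the wild type (adjusted p = 0.0362). The last of these calls was also made without construct replicate 2 (adjusted p = 0.0452). In the fit of all libraries these differences from the wild type were −0.39 ± 0.17 and 0.71 ± 0.17 (edgeR adjusted p = 0.214 and 0.183), and DESeq2 called the latter (adjusted p = 0.00536), as did limma-voom with quality weights. PYC2, a pyruvate carboxylase gene, was at 0.43 ± 0.12 in the deletion strain (edgeR adjusted p = 0.0552) and was called higher there by DESeq2 and, without construct replicate 2 or 3, by edgeR.

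Of 11 pentose phosphate genes, ZWF1, for the glucose-6-phosphate dehydrogenase that opens this branch, was higher in the deletion strain than in the wild type, at 362 ± 6.32 CPM against 281 ± 23.9 (SD, n = 3; log2 fold change 0.37 ± 0.09, edgeR adjusted p = 0.0432). It lost the call without any one wild-type or deletion library, with adjusted p of 0.0869 to 0.173. Without construct replicate 3 it was called lower with the construct than in the deletion strain (adjusted p = 0.00617). GND1, for 6-phosphogluconate dehydrogenase, was higher with the construct than in the deletion strain, at 450 ± 22.0 CPM against 369 ± 8.23 (log2 fold change 0.28 ± 0.05, edgeR adjusted p = 0.0106), a call lost without deletion replicate 2 or 3 (adjusted p = 0.0543 and 0.0687) or in a fit of both groups alone (0.0506). It was called lower in the deletion strain than in the wild type when any one construct library was left out, at adjusted p of 0.0184 to 0.0367. With all libraries each was the 1 gene of the list called in its comparison, where 6.4% and 5.38% of all tested genes were. In the construct strain against the wild type 0 genes of the list were called by edgeR or DESeq2. There 1 had an unadjusted p under 0.05, as did 12.8% of all tested genes.

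Among 13 trehalose and glycogen genes 0 were called by edgeR in any comparison, and 1, 9 and 6 had an unadjusted p under 0.05 in the order used so far, where 21.8%, 22.5% and 12.8% of all tested genes did. In the construct strain against the deletion strain the list median was 0.34, against 0.00 over all tested genes and 0.15 without construct replicate 3. TSL1, for a subunit of the trehalose synthase complex, was at 0.53 ± 0.14 (edgeR adjusted p = 0.0549) and GLC3, the glycogen branching enzyme gene, at 0.48 ± 0.13 (adjusted p = 0.067). TSL1 was the 1 gene of the list called without that library, while DESeq2 called 4 genes of the list higher, and edgeR 4 without construct replicate 1 and 4 without replicate 2. Over all genes these fits called, in the same order, 520 of 6008, 503 of 5970, 417 of 6004 and 720 of 5994.

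**Figure D5:**
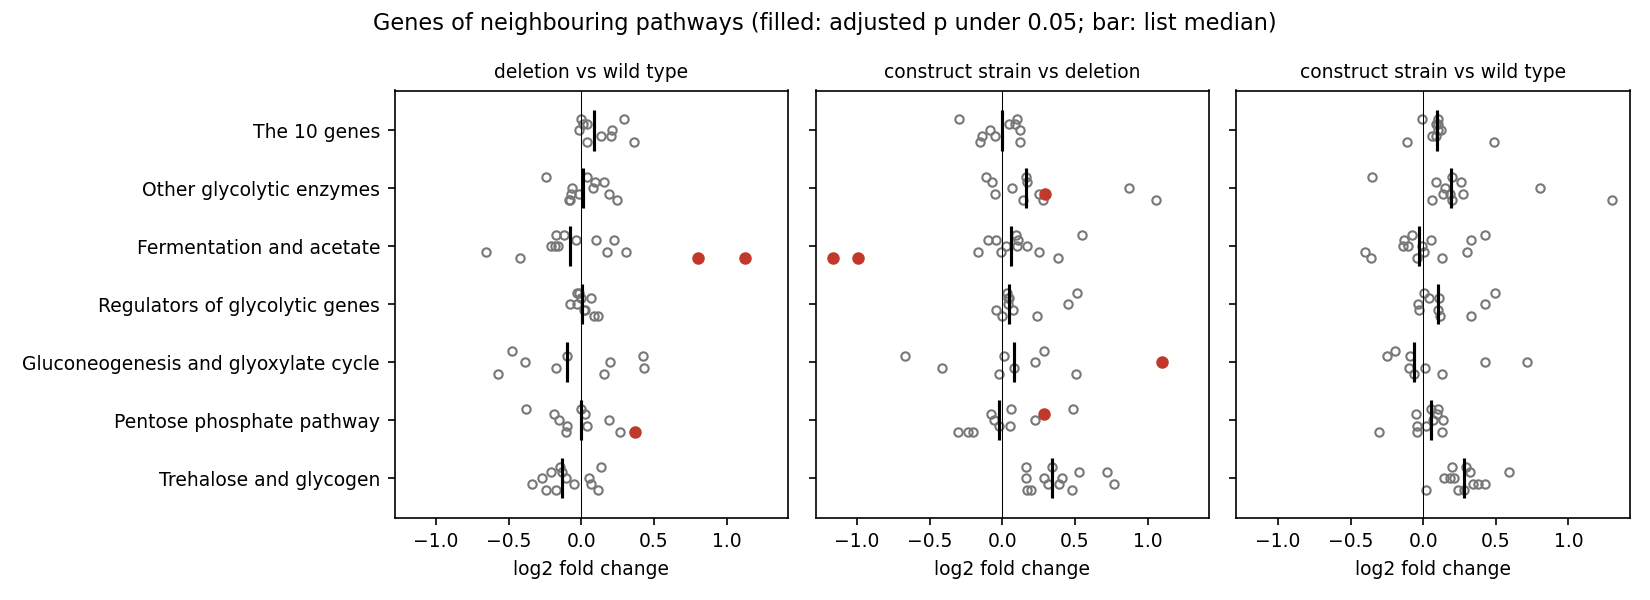
Fitted log2 fold changes of single genes (circles) in the 10 genes and 6 lists of related genes, for the 3 comparisons; filled circles passed an adjusted p under 0.05 and bars mark list medians. None of the 10 genes is filled, and the filled points in the deletion strain against the wild type are ALD5, ADH5 and ZWF1.

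Genes that varied most like TDH3 over the 9 libraries were found by the Pearson correlation of log2 CPM among 5060 genes that averaged 10 CPM or more. They were KSP1 (r = 0.979), SPO24 (0.972), YIL067C (0.963), VMA13 (0.953) and NPP1 (0.944). SPO24 and VMA13 have neighbouring systematic names, and whether they share reads was not looked at. Among the members ENO2 came closest to TDH3 (0.797), but ranked 144 of the 5060 genes. PGK1 (0.781, rank 172), ENO1 (0.729, rank 294), PDC1 (0.635, rank 505) and TDH2 (0.618, rank 547) followed. ADH1, FBA1, CDC19 and TDH1 had 0.378, 0.349, 0.284 and 0.0902. The libraries fall into 3 strains, so these values describe 3 groups as much as 9 points, and they were given no p.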

How the data were processed

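RNA-seq of 9 libraries in 3 groups was used, with groups and replicate numbers from the sample titles. The deposited table holds raw counts per feature, whole numbers not normalised by the authors; per the submitters' processing notes, FastQC 0.11.5, STAR 2.7.0, DESeq2 1.34.0 and build R64 were used. How reads were counted, and whether by strand, is not given in the sources used here. Totals of 14380639 to 20140071 make 3 counts equal 0.143 to 0.213 CPM.

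Genes kept by filterByExpr (5970) were tested with edgeR 4.0.16 (TMM, glmQLFit, glmQLFTest; R 4.3.3) in 1 fit of all libraries on the group alone (6 residual degrees of freedom), with Benjamini-Hochberg adjustment over all genes and a threshold of 0.05. SE and 95% intervals come from that fit. CPM use TMM-scaled totals, and correlations a prior count of 2. Names and positions come from the RefSeq R64 annotation, in which 6047 features matched by locus tag; its gene models hold coding sequence only. Upstream windows, identities and unique windows were computed with Python 3.11.15 and Biopython 1.88, and exact permutation tests with scipy 1.17.1. The procedure was tested on simulated counts, but the changes set there were larger than any fitted for the members. That test does not bear on changes of the members' size. Replicate libraries were no copies of each other (chi-square of their counts over degrees of freedom 2.89 to 64).

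The 10 members and the lists were chosen with earlier results of these data known. Named genes are the members, AIM29, ZPR1, and per list and comparison up to 4 called genes of lowest p, or 2 where none was called, and 5 genes most like TDH3; not all are printed, and others were chosen after their values were seen. Alternatives were other scaling, filters and tools (DESeq2 1.42.0, limma 3.58.1), the groups compared alone, a replicate block and leaving out each library; those for list genes were chosen after seeing the data.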

Additional observations from a re-analysis of the deposited data

How the results depend on the processing

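The number of the 10 genes called in the deletion strain against the wild type was 0 in the main analysis. It was 2 without composition factors, 1 when genes needed 100 counts in 3 libraries and 1 by limma-voom. Over all genes these fits called 503 of 5970, 405 of 5326 and 365 of 5970, in the same order. The number of members was 3 by DESeq2, 4 with library quality weights and 5 in a fit of the groups compared alone. It ran from 0 to 3 when single libraries were left out. In the construct strain against the deletion strain it was 1 without composition factors, where 377 of all 5970 genes were called. It was also 1 by DESeq2 and with quality weights, and 0 to 2 without single libraries. It was 0 under each alternative run for the construct strain against the wild type.

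Counts over all genes, 382, 321 and 11 in these comparisons, were 597, 503 and 72 by DESeq2, 1563, 621 and 40 with quality weights, and 1588, 153 and 4 in fits of the groups compared alone. Without single libraries they ran from 168 to 1097, 145 to 720 and 4 to 73. With the replicate number as a replicate block they were 328, 281 and 11 and no member was called. Same-numbered libraries did not deviate together (correlations −0.107 to 0.0745), which gave no sign of a pairing by number. So few libraries cannot exclude one. ZWF1 was at an edgeR adjusted p of 0.0573 under the block and 0.0511 with median-ratio factors.

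Differences in the share of counts on the 10 genes ran from 0.219 to 0.456, −0.0349 to 0.276 and 0.317 to 0.617 percentage points without single libraries. Log2 ratios of TDH1 to TDH3 ran from −0.259 to −0.0028, −0.158 to 0.011 and −0.322 to −0.066, of TDH2 to TDH3 from −0.112 to −0.0518, −0.12 to 0.121 and −0.197 to 0.0441, and of ENO1 to ENO2 from 0.0677 to 0.269, −0.358 to 0.447 and −0.192 to 0.614. The causes were not tested. Fits of fewer groups or libraries take their spread from fewer samples, and the groups differed in spread. The coefficient of variation was 14.8% in the construct strain, 5.23% in the wild type and 3.76% in the deletion strain. Calls over all genes between the deletion strain and the wild type were 168 to 206 without a library of either strain. Without a construct library they were 491 to 1097. Of 570 refits of single members, 539 kept their side of the threshold and 31 passed it, with 0 called in the opposite direction.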
